A study of Mus musculus with 217 samples.

Results

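Bone matrix and osteoblast genes were followed through single cells of the growth plate. The 6 genes, chosen by name from 9739 measured genes, were Col1a1, Col1a2, Serpinf1, Ifitm5, Bglap and Sparc, and all 6 were found. All cells were isolated from tibial growth plates, cut out under the microscope at postnatal day 7, of C57/BL animals that were wild-type and untreated, and there was no other genotype. Of 217 deposited columns, 52 formed 23 sets with r above 0.95 to each other. These sets, called repeats here, were averaged to 1 profile each, and 1 mixed column was left out. No animal is named for any cell, so all profiles are 1 sample, and differences between them were described without a test. Each SD is a spread over profiles, and each interval is a 95% exact (Clopper-Pearson) interval that covers counting error only.

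Cartilage and bone meet at the growth plate. Chondrocytes pass from resting through dividing and prehypertrophic to hypertrophic stages, and osteoblasts then lay bone matrix on the calcified cartilage they leave behind. Osteoblast matrix is mostly type I collagen, a trimer of chains encoded by Col1a1 and Col1a2. Serpinf1 encodes pigment epithelium-derived factor, a secreted serpin-family protein, and Ifitm5 encodes a small membrane protein of osteoblasts, also called BRIL. Bglap encodes osteocalcin, a matrix protein of mature osteoblasts, and Sparc encodes osteonectin, a collagen-binding matrix glycoprotein. In humans, mutations of the counterparts of Col1a1, Col1a2, Serpinf1, Ifitm5 and Sparc cause brittle bone disease (osteogenesis imperfecta).

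On GRCm38, Col1a1 lies at chr11:94936224-94953042 and Col1a2 at chr6:4504814-4541544, both on the plus strand. The other members lie on the minus strand, Serpinf1 at chr11:75409769-75422701, Ifitm5 at chr7:140948958-140950291, Bglap at chr3:88383501-88384464 and Sparc at chr11:55394500-55423183. Bglap has 2 close copies beside it, Bglap2 at chr3:88377736-88378699 and Bglap3 at chr3:88368616-88372743. The longest coding transcripts of Bglap and Bglap2 were identical at 434 of 440 aligned bases (98.6%), and 74.7% of all windows of 50 bases in the Bglap transcript also occurred in a Bglap2 or Bglap3 transcript. Reads of these genes can therefore be split in ways that the counting step decides, and single Bglap values are uncertain.

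Promoter sequence upstream of both the RefSeq and the GENCODE start is shown for Bglap, Serpinf1 and Ifitm5, each found in under 50% of chondrocyte profiles. Col1a1, detected in fewer chondrocyte profiles than these, is not shown. Capitals mark ACCACA or its reverse complement TGTGGT, the core letters bound by RUNX factors, which include the osteoblast regulator RUNX2, and GGGCGG, the GC box bound by SP-family factors.
Bglap, chr3:88384467-88384716, minus strand: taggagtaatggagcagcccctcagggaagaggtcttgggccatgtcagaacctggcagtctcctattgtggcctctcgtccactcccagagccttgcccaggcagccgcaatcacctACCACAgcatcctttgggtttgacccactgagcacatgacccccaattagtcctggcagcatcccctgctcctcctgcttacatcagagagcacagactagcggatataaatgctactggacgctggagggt
Serpinf1, chr11:75422702-75422873, minus strand: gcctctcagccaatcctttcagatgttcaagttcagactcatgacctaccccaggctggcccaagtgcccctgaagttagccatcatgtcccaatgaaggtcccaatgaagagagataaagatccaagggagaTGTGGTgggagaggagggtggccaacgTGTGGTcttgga
Ifitm5, chr7:140950292-140950493, minus strand: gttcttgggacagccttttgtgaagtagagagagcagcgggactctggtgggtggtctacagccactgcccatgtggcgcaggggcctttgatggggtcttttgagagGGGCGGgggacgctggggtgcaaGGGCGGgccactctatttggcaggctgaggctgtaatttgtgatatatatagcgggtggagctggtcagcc
Both strands were searched for these motifs and for the TATA box letters TATAAA, over the 250 bases before each RefSeq start. The RUNX letters occurred once in the Bglap window, starting at position -132 from the start site, and at -117 and -90 in the Serpinf1 window. The GC box occurred at -142 and -119 in the Ifitm5 window, and TATAAA at -27 in the Bglap window. Of all 32851 promoter windows of this length, 14% held the RUNX letters, 32.7% the GC box and 12.4% TATAAA. The matches are a description of the letters and not of binding.

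Profiles were split by Acan, which encodes aggrecan, the large proteoglycan of cartilage, at a deposited log2 value of 5. The 11 profiles below 5 (5.88% of all) are called aggrecan-low, and the others, all at 5 or above, are called chondrocyte profiles. The split falls in an empty stretch: the highest aggrecan-low profile had an Acan of 2.91, the lowest chondrocyte profile 6.67, and 9 of the 11 aggrecan-low profiles were at exactly 0. Of 19 measured cartilage genes other than Acan, aggrecan-low profiles had between 1 and 12 detected, with a median of 3, and chondrocyte profiles between 8 and 18, with a median of 15. Aggrecan-low profiles held 2187 to 4118 detected genes (median 2757), and chondrocyte profiles 1326 to 4994 (median 3463.5). Detection means a back-transformed value of at least 1.

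In the aggrecan-low profiles, 5 of the 6 bone genes were higher by at least 2 in mean log2 value, where 3.01% of all 9739 genes were that much higher and 6.15% that much lower. The median difference over the 6 genes was 5.67, against -0.16 over all genes. Col1a1 had the second largest difference of any gene, after Ibsp, which encodes bone sialoprotein. Col1a2, Serpinf1 and Ifitm5 stood at ranks 8, 9 and 13, Bglap at a percentile of 98.4 among all genes and Sparc at rank 847. Of the genes that stood beside them at the top, Tmsb4x (7.75) encodes an actin-binding peptide, Lgals1 (6.68) a galectin, and Ifitm3 (6.40) an interferon-induced membrane protein related to Ifitm5.

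**Figure D1:**
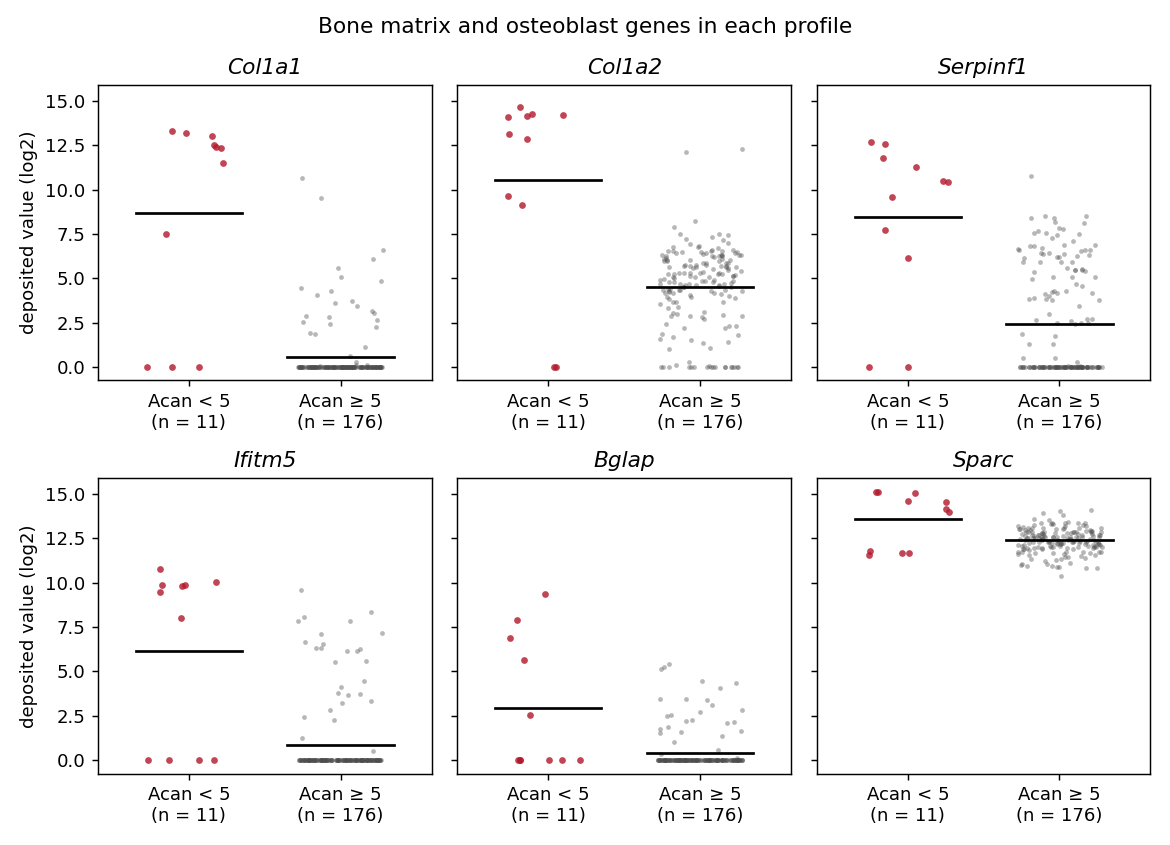
Deposited log2 value of each bone gene (vertical axis) in every profile, aggrecan-low profiles (Acan < 5, red, n = 11) left of chondrocyte profiles (Acan ≥ 5, grey), with a bar at the mean. Col1a1 was detected in 72.7% and 13.6% of profiles, whereas Col1a2 was detected in most profiles of both classes and Sparc in all of them.

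**Figure D2:**
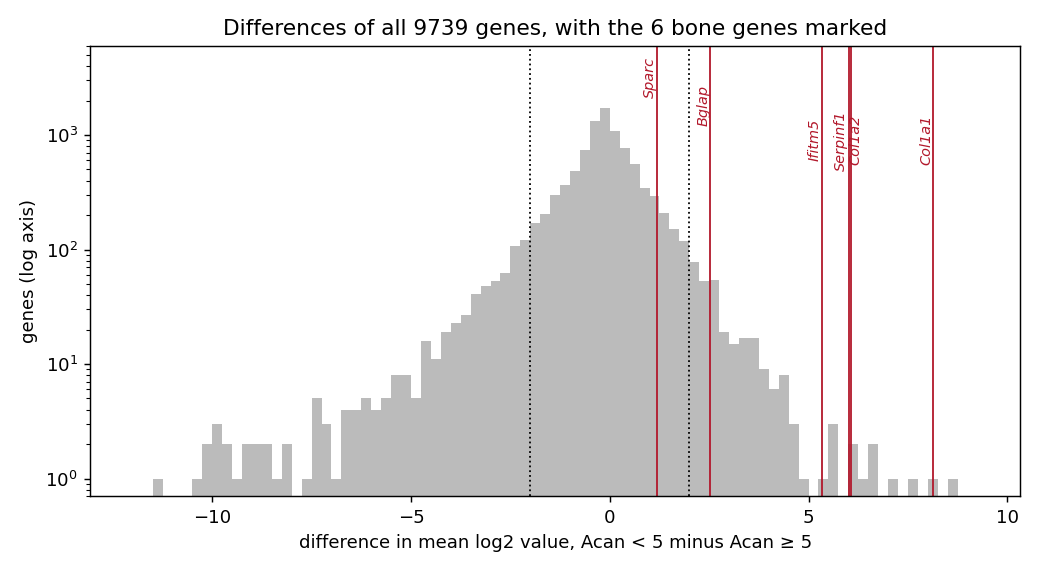
Number of genes (vertical log axis) by difference in mean log2 value, aggrecan-low minus chondrocyte profiles (horizontal axis), with red lines at the 6 bone genes and dotted lines at -2 and 2. Sparc, at 1.19, is the bone gene that lies inside the dotted lines.

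Of the 6 genes, Col1a1 had the largest difference, while Col1a2 (6.06) and Serpinf1 (6.01) stood close. Their order changed without Cell_114 (5.65 and 5.89), without Cell_061 (6.21 and 6.24) and without Cell_127 (5.70 and 5.73). In the aggrecan-low profiles, Col1a1 ran from 0 through a median of 12.33 to 13.28 and was detected in 8 of 11 (72.7%, interval 39 to 94%). In the chondrocyte profiles it ran from 0 through a median of 0 to 10.64 and was detected in 24 profiles (13.6%, 8.94 to 19.6%). The means were 8.70 ± 5.81 and 0.57 ± 1.64 (SD over profiles), a difference of 8.13, and 7 aggrecan-low profiles lay above every chondrocyte profile. The ranges overlapped, because 3 aggrecan-low profiles were at 0 and 2 chondrocyte profiles were above the lowest detected aggrecan-low value of 7.47. On the back-transformed scale, the 11 aggrecan-low profiles held 94.5% of the Col1a1 signal summed over all profiles.

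Col1a2 was the collagen gene that chondrocytes also carried. It was detected in 9 of 11 aggrecan-low profiles (81.8%, 48.2 to 97.7%) and in 88.6% of chondrocyte profiles (83 to 92.9%). The level set the classes apart where detection did not. In the aggrecan-low profiles Col1a2 ran from 0 through a median of 13.14 to 14.67, and in the chondrocyte profiles from 0 through a median of 4.91 to 12.29. The means were 10.55 ± 5.54 and 4.48 ± 2.28 (SD), a difference of 6.06. Where it was detected, the lowest aggrecan-low value was 9.12, and 2 chondrocyte profiles reached it. The mean back-transformed level was 111.4-fold higher in the aggrecan-low profiles, and 250.4-fold higher without Cell_014 and Cell_148, the chondrocyte profiles with the highest Col1a2.

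The chains were not detected alike in chondrocytes. All 24 chondrocyte profiles with Col1a1 also had Col1a2, none had Col1a1 alone, 20 had neither and all the others had Col1a2 alone. Col1a2 averaged 5.98 ± 2.40 (SD) in the 24 profiles with Col1a1 and 4.25 ± 2.17 in those without. The profiles with Col1a1 also held more detected genes, a median of 3761.5 against 3376.5, and the part of this in the difference was not tested. Zeros in these data need not mean that a transcript was missing. Col2a1, the main collagen gene of cartilage, was listed at 0 in 58.5% of chondrocyte profiles, and Serpinh1, the collagen chaperone, in 88.6%. A value of 0 for Col1a1 is therefore given as listed at 0 only.

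**Figure D3:**
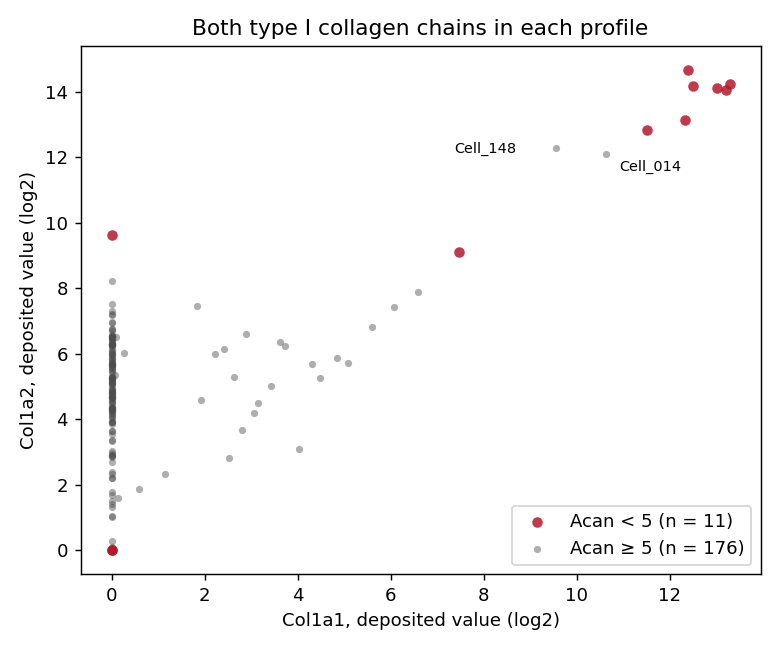
Deposited log2 values of Col1a1 (horizontal axis) and Col1a2 (vertical axis) in aggrecan-low (red, n = 11) and chondrocyte profiles (grey). Chondrocyte profiles stack at a Col1a1 of 0 over a wide range of Col1a2, and Cell_014 and Cell_148 lie near the aggrecan-low profiles.

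Serpinf1 was widespread at a lower level. It was detected in 9 of 11 aggrecan-low profiles (81.8%, 48.2 to 97.7%), from 0 through a median of 10.45 to 12.68. Of the chondrocyte profiles, 78 had it (44.3%, 36.8 to 52%), from 0 through a median of 0 to 10.77, with a median of 5.73 where detected. The means were 8.43 ± 4.60 and 2.42 ± 3.01 (SD), a difference of 6.01. The classes overlapped more than for collagen, since 34 chondrocyte profiles were at or above the lowest detected aggrecan-low value of 6.16, and 4 aggrecan-low profiles lay above every chondrocyte profile.

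Ifitm5 was rarer in chondrocytes but high where it appeared. It was detected in 7 of 11 aggrecan-low profiles (63.6%, 30.8 to 89.1%), from 0 through a median of 9.49 to 10.77. Of the chondrocyte profiles, 27 had it (15.3%, 10.4 to 21.5%), with a median of 6.14 where detected and a highest value of 9.59. The means were 6.17 ± 4.93 and 0.84 ± 2.13 (SD), a difference of 5.33. Within the aggrecan-low class the gene was either at 0, in 4 profiles, or at 8.0 and above. Its relative Ifitm3 was detected in 9 of 11 and 6.82% of profiles, while Ifitm2 was detected in all 11 and in 95.5%.

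Bglap was the least often detected member of the aggrecan-low class, in 5 of 11 profiles (45.5%, 16.7 to 76.6%), from 0 through a median of 0 to 9.39. The 25 chondrocyte profiles that had it (14.2%, 9.41 to 20.3%) held no more than 5.42. The means were 2.95 ± 3.76 and 0.42 ± 1.11 (SD), a difference of 2.53, which was 1.89, under the limit of 2, without Cell_039, the profile with the highest value. Bglap2 was detected in 6 of 11 and 25% of profiles, with a difference of 3.81. With the back-transformed values of Bglap, Bglap2 and Bglap3 summed, at least 1 of the 3 was detected in 7 of 11 aggrecan-low profiles (63.6%, 30.8 to 89.1%) and 59 chondrocyte profiles (33.5%, 26.6 to 41%), and the means of the log2 sum were 5.72 ± 4.97 and 1.66 ± 2.61 (SD).

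Sparc was detected in every profile. It was detected in 11 of 11 aggrecan-low profiles, from 11.59 through a median of 14.15 to 15.14, and in 100% of chondrocyte profiles, from 10.41 through a median of 12.43 to 14.11. The means were 13.57 ± 1.54 and 12.38 ± 0.67 (SD), a difference of 1.19, and the mean back-transformed level was 3.10-fold higher in the aggrecan-low profiles. This mean hides a gap within the aggrecan-low class. Its 7 profiles with a Col1a1 above 11 had Sparc values of 13.99 and higher, and 6 of the 7 lay above every chondrocyte profile. The other 4 had values of 11.59 to 11.80, below the chondrocyte median. The aggrecan-low profiles held 16.2% of the summed Sparc signal, against 69.4% to 94.5% for the other 5 genes.

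The aggrecan-low class was mixed. Of its 11 profiles, 5 had all 5 genes other than Sparc detected, 2 had 4, 1 had 3, 1 had 2 and 2 had none. Cell_061 had Col1a1 at 7.47 and Serpinf1 at 6.16 with Ifitm5 at 0. Cell_009 had Col1a2 at 9.63, Serpinf1 at 7.74 and the osteocyte gene Dmp1 at 7.41, with Col1a1, Ifitm5 and Bglap at 0. Cell_069 and Cell_110 had none of the 5 genes. They had the endothelial markers Pecam1 at 4.43 and 3.38 and Flt1 at 6.36 and 6.80. Cell_110 also had Cd68, listed as a macrophage marker, at 8.44. Cd68 was detected in 15.3% of chondrocyte profiles too, at up to 6.95. Without Cell_069 and Cell_110, Col1a2 and Serpinf1 were detected in 100% of aggrecan-low profiles. The difference of Col1a1 was then 10.07, of Col1a2 8.41, of Ifitm5 6.70 and of Sparc 1.61.

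**Figure D4:**
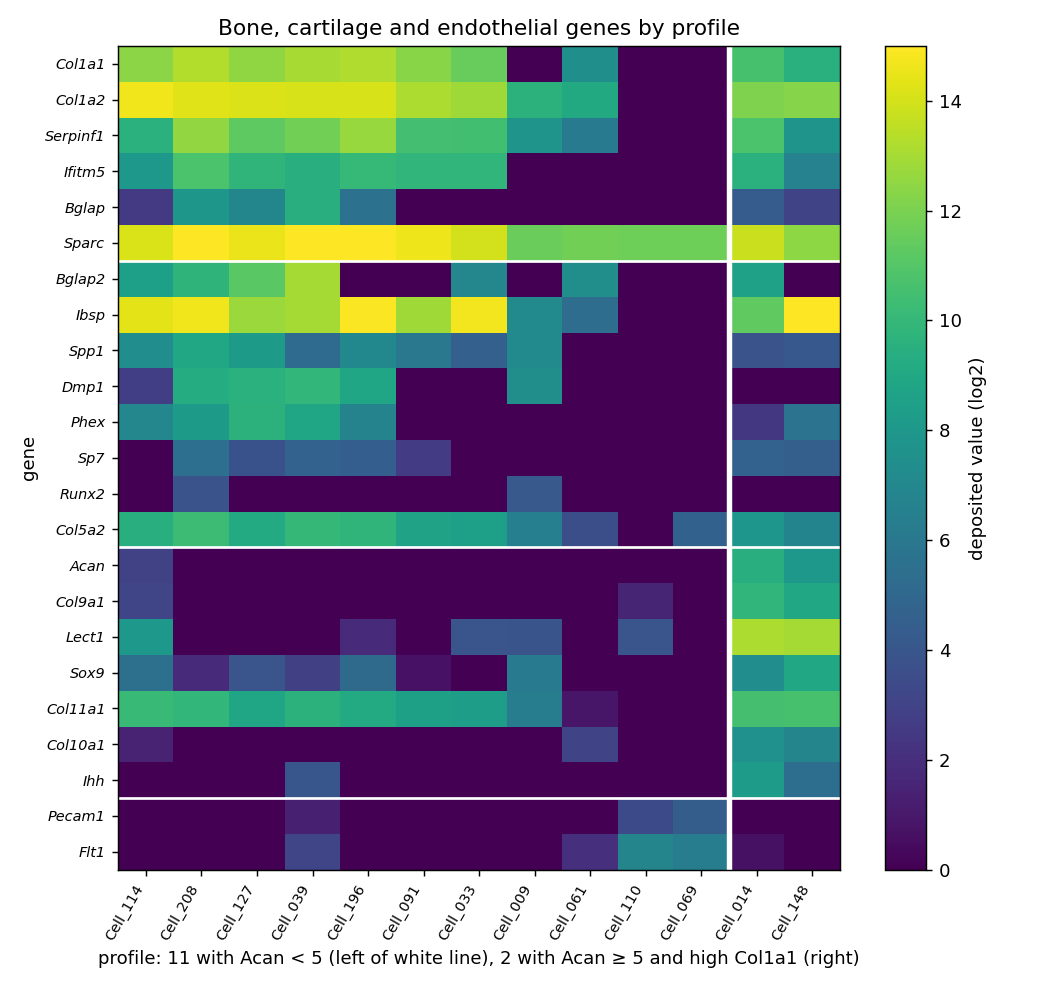
Deposited log2 value (colour) of bone genes (top 2 blocks), cartilage and zone genes (next block) and endothelial markers (bottom block) in the 11 aggrecan-low profiles and, right of the white line, in the chondrocyte profiles Cell_014 and Cell_148. Cell_110 and Cell_069 are at 0 for Col1a1, Col1a2, Serpinf1, Ifitm5 and Bglap, while Cell_014 and Cell_148 carry bone and cartilage genes together.

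Markers of other cell types were few among the measured genes. The 2 measured endothelial genes of 12 listed had a summed log2 level of 0 to 6.92 in aggrecan-low and 0 to 7.62 in chondrocyte profiles. The 6 measured macrophage genes of 14 had 0 to 10.26 and 0 to 9.97, and Csf1r, Lyz2 and Fcgr3 were not detected in any aggrecan-low profile. Fcer1g (difference 2.02) was the 1 macrophage gene higher by at least 2, detected in 3 aggrecan-low profiles and 2.84% of chondrocyte profiles. Of the 9 measured perichondrial and fibroblast genes, Fap (difference 3.56) and Dcn (3.33) were higher by at least 2 and Lum (-4.13) was lower, and Prrx2 was not detected in any aggrecan-low profile. Kitl (4.15), which encodes stem cell factor, was the 1 of 3 measured marrow stromal genes that was higher by at least 2. The part of such cells in the bone gene levels was not tested.

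Among the other osteoblast and osteocyte genes, 8 of the 19 measured were higher in the aggrecan-low profiles by at least 2 and 2 were lower, with a median difference of 1.64. Ibsp was detected in 9 of 11 and 21% of profiles, with a difference of 8.73. Genes of mineralized matrix and its control followed: Dmp1 (3.95), Spp1 (3.82), which encodes osteopontin, and Phex (2.80), a peptidase of phosphate balance. Cthrc1 (3.76) and Cdh11 (2.36), osteoblast cadherin, were also higher, as was Bglap2. The lower genes were Smpd3 (-3.91), which encodes a sphingomyelinase, and Car12 (-3.88), a carbonic anhydrase. The regulators that direct osteoblast formation differed little: Sp7 (osterix) was detected in 45.5% of both classes with a difference of 0.09, and Runx2 in 18.2% and 10.2% with a difference of 0.27.

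Genes of type I collagen assembly and of osteogenesis imperfecta, taken as 1 list, did not move as a block. Of 28 measured genes, 3 were higher in the aggrecan-low profiles by at least 2 and 6 were lower, with a median difference of -0.24. The 3 higher genes act on procollagen outside the cell: Bmp1 (2.68), the C-propeptide proteinase, was detected in 10 of 11 and 16.5% of profiles, Pcolce (3.54), its enhancer, in 9 of 11 and 76.7%, and Adamts2 (2.03), an N-propeptide proteinase, in 6 of 11 and 4.55%. Pcolce2 (-5.86), the paralogue of Pcolce, lay the other way and was detected in 5 of 11 and 98.9%. The other lower genes were Crtap (-2.70) and P4ha2 (-2.20), of prolyl hydroxylation, Plod3 (-2.26), a lysyl hydroxylase, Kdelr2 (-2.32), an ER retrieval receptor, and Loxl2 (-2.19), a lysyl oxidase. P4hb and Ppib, of the ER folding machinery, were detected in all aggrecan-low and all chondrocyte profiles, with differences of -0.63 and -0.35.

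Collagens that share fibrils with type I followed it in part. Of 10 other measured collagen genes of bone and fibroblasts, Col5a2 (4.99) and Col5a1 (2.36), 2 chains of fibrillar collagen V, were higher by at least 2. Col5a3, another collagen V chain, had a difference of -0.19. The collagen VI genes Col6a1 (-6.42), Col6a2 (-4.74) and Col6a3 (-3.39) were lower. Col3a1, the fibrillar collagen of loose connective tissue, was detected in 2 of 11 and 33.5% of profiles. In the Sparc family, Fstl1 was higher by 2.78 and Smoc2 lower, with a difference of -7.41.

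Cell_014 and Cell_148 were chondrocyte profiles with bone gene levels close to those of the aggrecan-low class. Cell_014 had Col1a1 at 10.64, Col1a2 at 12.10, Serpinf1 at 10.77, Ifitm5 at 9.59 and Bglap at 4.34, beside Acan at 9.48, Lect1 (chondromodulin) at 13.16 and Ihh at 8.20. Cell_148 had Col1a1 at 9.55, Col1a2 at 12.29, Serpinf1 at 7.75, Ifitm5 at 6.64 and Bglap at 3.08, beside Acan at 8.01, Lect1 at 12.96 and Ibsp at 15.05. Both had 15 of 19 cartilage genes other than Acan detected, and they held 4516 and 4331 detected genes, ranks 3 and 10 among all profiles. Their highest correlation with an aggrecan-low profile was 0.573 and 0.587, and with another chondrocyte profile 0.672 and 0.651, over 9739 genes. The highest value was taken over many more chondrocyte than aggrecan-low profiles. The median correlation with the other chondrocyte profiles was 0.595 and 0.606. Whether Cell_014 and Cell_148 stand for 1 cell each was not tested. They held 85.1% of the Col1a1 signal summed over chondrocyte profiles and 56% of that of Col1a2, and without them the highest chondrocyte values were 6.58 for Col1a1 and 8.21 for Col1a2.

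Bone genes were unevenly spread over the chondrocyte profiles. Splits by single zone genes are given below, and whether they follow cell stage was not tested. Ibsp, used for 1 of the splits, also had the largest difference between aggrecan classes (8.73). Of the chondrocyte profiles, 7 had none of the 5 genes other than Sparc detected, 74 had 1, 63 had 2, 21 had 3, 8 had 4 and 3 had all 5. Profiles were divided by detection of Col10a1, the collagen of hypertrophic cartilage, of Ibsp, of late hypertrophic cells, of Ihh, the hedgehog ligand of prehypertrophic cells, and of Spp1. Profiles with the zone gene held more detected genes each time, with medians of 3542 against 3025 for Col10a1, 3682 against 3306 for Ibsp and 3684 against 3306 for Ihh. Values within terciles of profiles by detected genes are therefore given beside some of the main ones, but not for Spp1.

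Ifitm5 was found with Col10a1. All 27 profiles with Ifitm5 were among those with Col10a1 (19.7% of them, 13.4 to 27.4%), against 0 of 39 without, where the exact interval reaches 9.03% and the limit of 3 counts is 7.69%. All detections thus fell on the Col10a1 side in each tercile by detected genes, with 5 of 37, 7 of 46 and 15 of 54 profiles with Col10a1 and 0 of 22, 0 of 12 and 0 of 5 without. The difference in mean log2 value was 1.07, where 5.52% of all genes were higher by at least 1 and 0.821% lower by at least 1. Ifitm5 was the 1 member past that limit, and without Cell_014 and Cell_148 its difference was 0.97, with detection in 18.5% of profiles with Col10a1. Sparc was higher by 0.68 with Col10a1, with medians of 12.55 and 11.94, and by 0.59, 0.61 and 0.55 within the terciles. Col1a2 was detected in 87.6% with and 92.3% without, and Serpinf1 in 45.3% and 41%, with differences in mean of -0.29 and 0.02.

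Col1a1 was detected in a larger share of profiles with Ibsp than without it. It was detected in 15 of 37 profiles with Ibsp (40.5%, 24.8 to 57.9%) and in 9 profiles without (6.47%, 3.0 to 11.9%), a difference in mean of 1.84. Within the terciles by detected genes the counts were 1 of 2, 5 of 13 and 9 of 22 profiles with Ibsp and 1 of 57, 2 of 45 and 6 of 37 without. Ifitm5 (1.30), Serpinf1 (1.25) and Col1a2 (1.08) were also higher by at least 1 with Ibsp, so 4 of the 6 members were past a limit that 6.53% of all genes passed upward and 0.893% downward. Cell_014 and Cell_148 weighed on these values. Without them Col1a1 was detected in 13 of 35 profiles with Ibsp, with a difference of 1.38, whereas Ifitm5 (0.95), Serpinf1 (0.92) and Col1a2 (0.68) were under 1, and 6.3% of all genes were higher by at least 1 and 0.986% lower. Bglap was detected in 16.2% of profiles with Ibsp and 13.7% without. With Cell_014 and Cell_148 kept in, Ifitm5 (-0.54), Serpinf1 (-1.83) and Col1a2 (-0.51) were lower with Ibsp in the tercile with fewest detected genes. Only 2 profiles there had Ibsp. In the tercile with most detected genes they were higher with Ibsp, by 1.25, 0.79 and 0.65, and in the middle tercile by 1.36, 1.40 and 0.99.

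With Ihh, Col1a1 was detected in 18 of 61 profiles (29.5%, 18.5 to 42.6%) and without it in 6 profiles (5.22%, 1.94 to 11%). Ifitm5 was detected in 26.2% and 9.57%. The differences in mean were 1.04 and 1.10, where 2.79% of all genes were higher by at least 1 and 0.205% lower. Without Cell_014 and Cell_148 both were under 1, at 0.74 for Col1a1 and 0.88 for Ifitm5, with detection of Col1a1 in 27.1% and 5.22% of profiles. Col1a1 did not show this in the tercile with fewest detected genes, where it was detected in 0 of 12 profiles with Ihh and 2 of 47 without, against 14 of 34 and 1 of 25 in the tercile with most. Ifitm5 was higher with Ihh in each tercile, by 1.62, 0.40 and 0.90 from fewest to most detected genes. With Spp1, no member was higher by at least 1, a limit that 1.98% of all genes passed upward and 0.452% downward, and Col1a1 was detected in 23.3% with and 10.5% without.

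**Figure D5:**
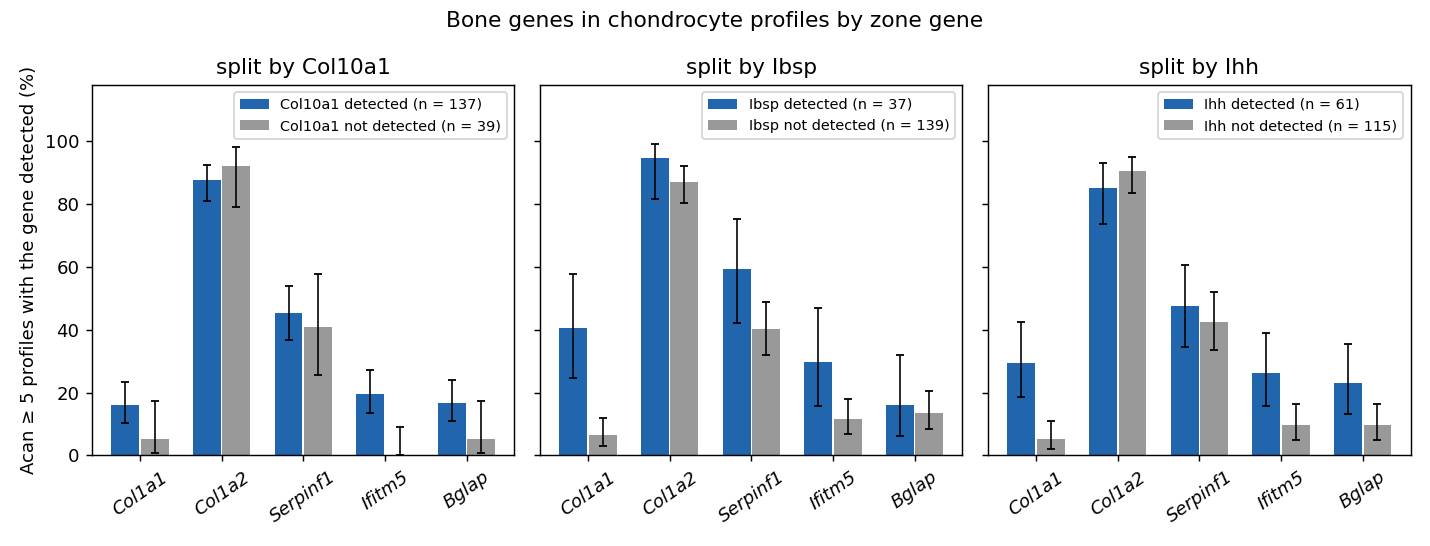
Share of chondrocyte profiles with each bone gene detected (vertical axis, percent, bars from 0, with 95% exact intervals), in profiles with (blue) and without (grey) Col10a1, Ibsp or Ihh. Ifitm5 was detected in 0 of 39 profiles without Col10a1, and Col1a1 in 40.5% with and 6.47% without Ibsp.

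Detection went with the number of genes found in a profile. Between the tercile of chondrocyte profiles with most detected genes and that with fewest, Col1a1 was detected in 25.4% and 3.39%, Ifitm5 in 25.4% and 8.47%, Serpinf1 in 61% and 33.9%, Bglap in 16.9% and 6.78% and Col1a2 in 94.9% and 78%. Sparc averaged 12.61 ± 0.49 and 12.12 ± 0.77 (SD, n = 59 each). How far capture of RNA and cell stage each bear on this was not tested.

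The sets of repeats were picked by r above 0.95 over these same values. Their agreement was therefore partly fixed by that choice. Of the 23 sets of repeats, all agreed on detection of Col1a1, Col1a2, Bglap and Sparc, and 22 on Serpinf1 and Ifitm5, where the highest value in the split sets was 1.03 and 1.02. Where a gene was detected in all columns of a set, the SD between repeats was 0.29 for Col1a1, 0.22 for Col1a2 and Sparc, 0.40 for Serpinf1, 0.67 for Bglap and 0.82 for Ifitm5, against SDs of 2.83, 2.93, 0.79, 3.42, 1.51 and 2.68 over all profiles, in the same order of genes. The SDs over all profiles include undetected values and aggrecan-low profiles, so they are not like for like with those between repeats. No aggrecan-low profile had a repeat, so the values between repeats cover chondrocyte profiles only, and they are not a measured precision.

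The genes most like each member over all profiles, by Spearman's rho among 8814 genes, are given as a description, since profiles share 1 sample and differ in detected genes. Among the genes nearest to Col1a1 were Pdgfc (0.52), a growth factor gene, Ibsp (0.50), Slc36a2 (0.50) and Car3 (0.49). Ifitm5 was nearest to Car3 (0.49), Entpd3 (0.46), Insc (0.46), Cdh2 (0.46) and Slc36a2 (0.46). Among those nearest to Serpinf1 were Mmp23 (0.38), Col1a1 (0.36), Mmp16 (0.35) and Slc36a2 (0.35). Col1a2 was nearest to Pdgfc (0.38), Cdh2 (0.37), Col1a1 (0.35), Cthrc1 (0.33) and Adamts2 (0.33), and Bglap to Bglap2 (0.41), Car3 (0.40), Pdgfc (0.36), Cdh2 (0.36) and Col1a1 (0.35). These rhos span both Acan classes, so they are not separate from the Acan split. Pdgfc, Cdh2, Entpd3 and Insc were each detected in 5.88% of profiles, near the limit of 5%. Over the chondrocyte profiles alone, the rho with Col1a1 was 0.15 for Ifitm5, 0.23 for Serpinf1, 0.25 for Bglap and 0.37 for Ibsp. That of Bglap with Bglap2 was 0.37.

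Sparc had other neighbours. Over all profiles they were Bgn (0.51), which encodes biglycan, Ctsh (0.49), Comp (0.48), Ccdc80 (0.47) and Chad (0.45). Over the chondrocyte profiles, Sparc ranked nearest to Comp (0.63), a cartilage matrix protein, Chad (0.59), which encodes chondroadherin, Ccdc80 (0.57), 3110079O15Rik (0.53) and Col6a1 (0.53), whereas its rho with Col1a1 was 0.19 and with Col1a2 0.15. In these profiles Col1a1 and Col1a2 had a rho of 0.22.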

How the data were processed

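Per the labels' protocols, polyA RNA of single cells was amplified as full-length cDNA (SMARTer) and Nextera XT libraries were built. TopHat and mm10 are named in the submitters' processing notes. How abundance was quantified, in what unit, and with which annotation and filters is not given in the sources used here. Log2 values were deposited by the authors with a column for each cell, of which 62.3% are 0. Base 2 and a pseudocount of 1 are inferences from these values. Back-transformed totals per column ran from 394406 to 616257, so that the authors' deposited values were already scaled and depth is unknown.

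The 1 row with no gene name was left out, and 9739 genes remained. The 217 columns were matched by name. Columns with r above 0.95 to each other (52 columns in 23 sets) were averaged, and Cell_204 was left out as a mixture, which gave 187 profiles. No doublet caller was run. A gene counted as detected from a back-transformed value of 1 upward. Shares have 95% exact Clopper-Pearson intervals. A gene was called higher or lower at a difference of 2 in mean log2 value between aggrecan classes, and of 1 between zone classes. No animal is named for any cell, so cells are 1 sample, and no test or p-value was computed.

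The members and gene lists were chosen with earlier results of these data known. Genes named were the members, the list genes with the largest differences or wide detection, the 5 genes of highest Spearman rho to each member among genes detected in at least 5% of profiles, and 4 zone genes, and some genes that this rule takes are not reported here. Cell_014, Cell_148, Cell_069, Cell_110, Cell_009 and Cell_061 were singled out after their values were seen, as were Fcer1g, Cd68 and the summed Bglap genes. The alternatives covered detection, the Acan threshold, the gene of the split, repeats, the mixed column, sparse profiles, scaling, the pseudocount, the gene background and profiles left out. Steps were tested on simulated data. The software was SciPy 1.17.1, pandas 2.3.3, NumPy 2.4.6, NetworkX 3.6.1 and matplotlib 3.10.9 under Python 3.11.15. Gene positions are from GENCODE M21 (GRCm38), the same build as mm10, and promoter sequences from RefSeq (GRCm38.p6).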

Additional observations from a re-analysis of the deposited data

How the results depend on the processing

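None of the 6 differences between Acan classes changed sign under the alternatives run. Spread over the aggrecan-low profiles was wide (SD 3.76 for Bglap and 1.54 for Sparc, each above its difference), so a shift within 1 SD says little about stability. Over all settings the difference between aggrecan-low and chondrocyte profiles ran from 6.79 to 10.09 for Col1a1, 5.39 to 8.41 for Col1a2, 4.68 to 7.88 for Serpinf1, 4.42 to 7.27 for Ifitm5, 1.89 to 3.56 for Bglap and 1.03 to 1.73 for Sparc, and 4 to 5 members were higher by at least 2, with 4 without Cell_039, where Bglap was at 1.89. Col1a2 was below Serpinf1 and Ifitm5 with a pseudocount of 0.1 (5.90, 7.25 and 6.94) and without the tenth of profiles with fewest genes (6.77, 6.84 and 7.27). Counting only back-transformed values from 10 upward as detected, the shares of chondrocyte profiles were 6.82% for Col1a1, 74.4% for Col1a2, 36.4% for Serpinf1, 3.98% for Bglap and 75% for either collagen chain. The share of all genes higher by at least 2 was 1.92% with the Acan threshold at 7, 5.27% without the tenth of profiles with fewest genes and 7.52% with a pseudocount of 0.1. Without Cell_069 and Cell_110, Col1a2 and Serpinf1 were detected in 100% of aggrecan-low profiles. The cause of each shift was not tested. Leaving out each aggrecan-low profile in turn gave differences of 7.67 to 9.0 for Col1a1, 5.65 to 7.12 for Col1a2, 5.58 to 6.85 for Serpinf1, 4.87 to 5.95 for Ifitm5, 1.89 to 2.82 for Bglap and 1.03 to 1.39 for Sparc. Without Cell_014 and Cell_148, the members past a difference of 1 with Col10a1 or Ihh were under it, as were 3 of the 4 with Ibsp, and 2 differences near 0 changed sign (Bglap with Ibsp to -0.08 and Serpinf1 with Col10a1 to -0.08). The alternatives that leave out Cell_069 and Cell_110, Cell_014 and Cell_148, or each profile in turn were chosen after seeing the data. No paired analysis was possible because the cells carry no shared replicate numbers between classes and no animal is named. With 11 aggrecan-low profiles, intervals on their shares are wide, and depth is unknown.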

Other observations

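Cell_204, left out of all comparisons as a mixed column, had Col1a1 at 8.27, Col1a2 at 11.59, Serpinf1 at 6.30, Ifitm5 at 4.57, Bglap at 0 and Sparc at 12.25, beside Acan at 8.25 and Ibsp at 14.23. Its values correlated at 0.873 with Cell_148 and at 0.865 with Cell_018, and at 0.688 with the next profile.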
